A study of Mus musculus with 12 samples.

Results

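Transcripts of 10 regulators of the integrated stress response were examined in primary mouse adult fibroblasts (MAFs). They were chosen by name, and 10 of 10 were in a table of 10697 genes. They comprise the ATF factors *Atf3*, *Atf4* and *Atf5*, the C/EBP family members *Cebpb*, *Cebpg* and *Ddit3* (the gene of CHOP), the pseudokinase gene *Trib3*, the inhibitors of mTORC1 *Ddit4* and *Sesn2*, and the small chromatin-associated stress protein gene *Nupr1*. The cells were wild type, had grown out of biopsies of C57BL6/j mice in high-glucose medium with fetal bovine serum, and received thymol, a terpenoid phenol of thyme and oregano, at 100 µM for 24 h (6 libraries), or DMSO, its solvent, in equal volume (6 libraries). By their labels both groups shared strain, genotype and medium. The labels do not say whether the 6 libraries of a group came from separate cultures or animals, so the p-values measure the spread between libraries, which may be technical. RNA was read from its 3′ end by QuantSeq, in which 1 transcript gives about 1 read whatever its length. Levels are log2 CPM, read counts scaled to a common library size (counts per 1e6 reads) on a log2 scale, and between 5435985 and 9049796 reads per library stood behind them.

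The integrated stress response lets a cell answer very different insults, among them unfolded proteins in the endoplasmic reticulum, a shortage of amino acids and disturbed mitochondria, through a common step. Kinases phosphorylate the translation initiation factor eIF2α, general protein synthesis slows, and the transcription factor ATF4 is made from an mRNA whose upstream reading frames otherwise hold it back. ATF4 acts as a dimer with other basic leucine zipper (bZIP) proteins, above all of the C/EBP family, and its targets include further regulators such as ATF3, CHOP and TRIB3, so that part of the response is visible in transcript levels and part, the control of ATF4 translation, is not.

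The libraries carried markers of fibroblasts and of macrophages. The table held 17 of 18 fibroblast markers (all but *Lum*), whose median level was 8.22 log2 CPM, as well as 18 of 18 genes typical of macrophages, whose median level was 8.68. The median of all genes was 5.02. Summed over the list, macrophage markers reached 20590 to 24519 CPM with thymol and 20340 to 22284 with DMSO. Fibroblast markers summed to 13352 to 13893 with thymol and 14002 to 15363 with DMSO, without overlap. The mean of the macrophage markers differed by 0.0055 log2 CPM (exact two-sided permutation test, p = 0.823) and that of the fibroblast markers by -0.049 (p = 0.0325). By limma 2 fibroblast markers passed as lower, and 2 macrophage markers as higher and 1 as lower. For keratinocytes, endothelial cells, skeletal muscle, adipocytes and chondrocytes 1 or 2 markers each were in the table, and for lymphocytes and Schwann cells 0. The 2 skeletal muscle markers summed to 93 to 125 CPM with thymol and 133 to 160 with DMSO, without overlap, and their mean differed by -0.45 (exact permutation test, p = 0.0433), with 1 of them past the limma threshold. Of the markers listed for adipocytes only *Fabp4* was in the table. It differed by 0.25 (exact permutation test, p = 0.0108) and did not pass in limma. *Myod1*, *Myog*, *Adipoq* and *Plin1* were among the absent markers, so these shifts do not show that muscle cells or adipocytes were present. Which cells held the transcripts described here cannot be told, and in bulk RNA fewer cells of a type and less RNA per cell cannot be told apart. The part of these marker shifts in the results was not tested.

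Of the 10 regulators, only *Atf3* passed the test between thymol and DMSO. It rose 1.34-fold, whereas *Atf4* itself, *Ddit3* and *Trib3* had differences of 0.04, -0.03 and 0.07 on the log2 scale, which did not pass. The test was a linear model fitted with limma to all genes at once, with p-values adjusted for the number of genes. By it, 1 of 10 members passed an adjusted p-value of 0.05, with a higher level, where 2.22% of all genes passed in either direction and 0.654% passed with a higher level. At an unadjusted p-value under 0.05, 2 of 10 members passed, *Atf3* and *Cebpb*, against 11.8% of all genes. Differences were positive for 6 members and negative for 4, with a median of 0.033, and the median of all genes was 0.0026. The groups did not overlap for 1 of 10 members, and for 1.68% of all genes, 0.524% with thymol higher and 1.16% with thymol lower. Both counts rest on *Atf3* alone.

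**Figure D1:**
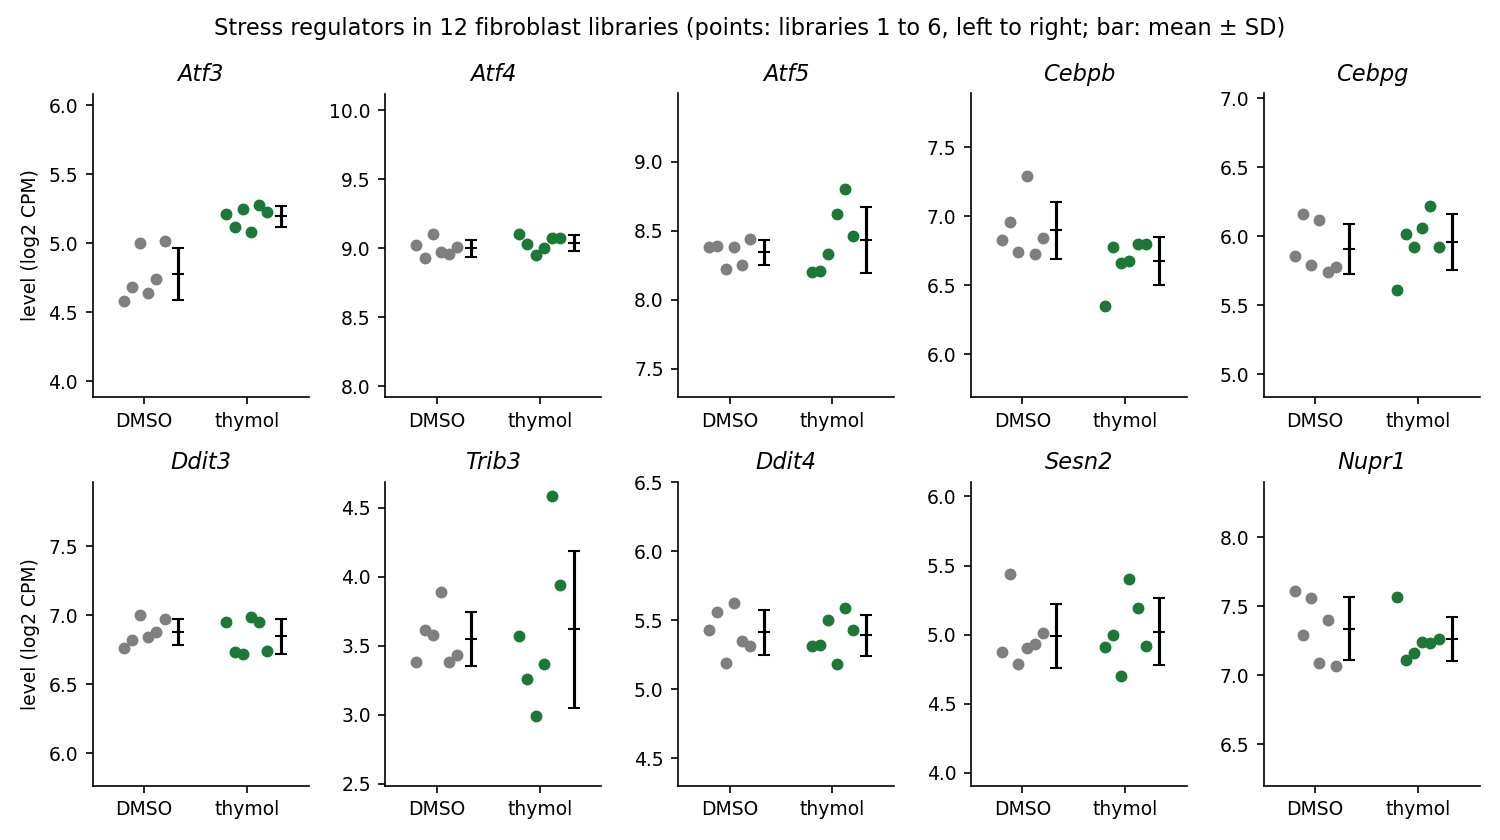
Levels (log2 CPM, vertical axes all spanning the same range) of the 10 regulators in the 6 DMSO libraries (grey) and 6 thymol libraries (green), in order of library number from left to right, with the mean ± SD of each group as a bar. Only for *Atf3* do the 6 thymol points, at 5.08 to 5.28, lie entirely above the 6 DMSO points, at 4.58 to 5.02.

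*Atf3* encodes a stress-induced bZIP factor that binds DNA as a homodimer or with JUN proteins and often acts as a repressor, among others of cytokine genes in macrophages. Its level ran from 5.08 through a median of 5.22 to 5.28 log2 CPM in the thymol libraries and from 4.58 through 4.71 to 5.02 in the DMSO libraries. All 6 thymol libraries were above all 6 DMSO libraries, and the nearest were thymol replicate 4, at 5.08, and DMSO replicates 6 and 3, at 5.02 and 5.0. The means were 5.19 ± 0.08 and 4.78 ± 0.19 (SD, n = 6 each), a log2 difference of 0.42 ± 0.117 (SE, limma adjusted p = 0.0394) with a 95% interval from 0.18 to 0.65. In reads, these levels were 197 to 351 per thymol library and 164 to 254 per DMSO library. By p-value *Atf3* ranked 219 of the 238 genes past the threshold, close to the limit. When single libraries were omitted in turn, it passed in 3 of 12 fits, those lacking thymol replicate 4 or either of the highest DMSO libraries, 3 and 6. In the other 9 it did not pass, with limma adjusted p-values of up to 0.112, reached without DMSO replicate 1. The difference stayed between 0.38 and 0.47 in those 12 fits, and the adjusted p-value was 0.0639 without a mean-variance trend in limma. The exact permutation test gave p = 0.00216, the smallest it can give, which adjusted over all genes was 0.129. No gene could have a lower adjusted p-value in that test, so failing it there says nothing about *Atf3* in particular.

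*Atf3* has a start site in RefSeq within its annotated span (chromosome 1, 191170296 to 191218039, minus strand, GRCm38). The 250 bases before that start, chr1:191183334-191183583 on the minus strand, are shown because they hold the letters that C/EBP-ATF dimers are known to bind. The sequence is from RefSeq (GRCm38.p6) and the capitals mark a match to TGATGNAAN on the opposite strand.
Atf3 upstream: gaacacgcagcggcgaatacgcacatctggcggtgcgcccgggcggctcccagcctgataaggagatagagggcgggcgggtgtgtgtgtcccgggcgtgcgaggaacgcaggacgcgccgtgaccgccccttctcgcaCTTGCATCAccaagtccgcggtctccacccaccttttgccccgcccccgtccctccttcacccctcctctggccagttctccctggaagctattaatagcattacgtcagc

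The same letters were sought on both strands from 250 bases before to 50 bases after the start in 11 windows that covered 10 of 10 members (*Atf5* has a pair of starts). They occurred in 3 of the 11 windows, those of *Atf3*, *Trib3* and *Nupr1*, and in 3.95% of all 32851 RefSeq windows. The 3 matches are set side by side with 10 bases on either side, to show how far the letters agree. *Atf3* passed the test, and *Trib3* and *Nupr1* did not. Whether their differences were unlike that of *Atf3* was not tested. The 95% interval of *Trib3*, from -0.35 to 0.49, contains the *Atf3* difference of 0.42, and that of *Nupr1*, from -0.23 to 0.08, does not.
Atf3 site: ccttctcgcaCTTGCATCAccaagtccgc
Trib3 site: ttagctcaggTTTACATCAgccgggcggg
Nupr1 site: aaagggccagATTGCATCAgacagggctt
The sites lie at chr1:191183426-191183454, chr2:152344029-152344057 and chr7:126625563-126625591, all with the gene on the minus strand. Counted from the start, the first base of the match is at -111 in *Atf3* and in *Nupr1* and at 14 in *Trib3*. The cyclic AMP response element TGACGTCA occurred in 0 of the 11 windows and in 1.79% of all windows. Only these exact letters were sought. Near matches, such as TTACGTCA towards the end of the *Atf3* sequence above, were not counted. CCACG, one end of the ER stress element, occurred in windows of 7 members and in 32.8% of all windows, and 1 pair of matches to it overlapped, in *Nupr1*. By symbol, 8529 of the 10697 genes in the table had a window. Among their windows the shares were 2.14% for TGATGNAAN, 3.03% for TGACGTCA and 47.4% for CCACG. A match describes letters and not binding, which was not measured.

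*Atf4* (chromosome 15, 80255184 to 80257541, plus strand) encodes the central factor of the response. It had the highest level of the 10 and varied least. Its lowest, median and highest values were 8.95, 9.05 and 9.1 log2 CPM with thymol and 8.93, 8.99 and 9.1 with DMSO, from 2927 to 4870 reads per library with thymol. The ranges overlapped almost completely. The log2 difference was 0.04 ± 0.0494 (SE, limma adjusted p = 0.851), with a 95% interval from -0.06 to 0.14, or 0.96-fold to 1.1-fold. A rise of the size seen for *Atf3* lies outside that interval. The amount of ATF4 protein was not measured by these libraries.

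*Atf5* (chromosome 7, 44812256 to 44816658, minus strand) encodes a relative of ATF4 that is under similar translational control and is linked to the mitochondrial unfolded protein response. In the thymol libraries its lowest, median and highest values were 8.2, 8.4 and 8.8 log2 CPM, and in the DMSO libraries 8.22, 8.38 and 8.44. Thymol replicates 4, 5 and 6 were above every DMSO library and replicates 1 and 2 below every one, so the thymol libraries spread to both sides. The SD was 0.24 with thymol and 0.09 with DMSO. The log2 difference was 0.09 ± 0.0684 (SE, limma adjusted p = 0.671), and without thymol replicate 5 it was 0.02.

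The C/EBP family members are the dimer partners. *Cebpb* (chromosome 2, 167688915 to 167690418, plus strand) encodes an activator of inflammatory and acute-phase genes in macrophages and fibroblasts. Its lowest, median and highest values were 6.35, 6.73 and 6.80 log2 CPM with thymol and 6.73, 6.83 and 7.29 with DMSO. No thymol library exceeded the median of the DMSO libraries (0 of 6), and 3 of 6 lay below all of them. The log2 difference was -0.22 ± 0.0832 (SE), with a 95% interval from -0.39 to -0.05, an unadjusted p-value of 0.011 and a limma adjusted p-value of 0.204 over all genes, so it did not pass. The extremes were thymol replicate 1 and DMSO replicate 4. Without either, the difference was -0.15 and -0.14, respectively.

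*Cebpg* (chromosome 7, 35046422 to 35056573, minus strand) encodes the short C/EBP protein that joins ATF4 on its target genes. Its lowest, median and highest values were 5.61, 5.97 and 6.22 log2 CPM with thymol and 5.74, 5.83 and 6.16 with DMSO. The ranges overlapped, and the log2 difference of 0.05 ± 0.0969 (SE, limma adjusted p = 0.92) was smaller than the SD of either group, 0.20 and 0.18.

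*Ddit3* (chromosome 10, plus strand) encodes CHOP, a C/EBP-like protein whose induction marks strong or lasting stress of the endoplasmic reticulum. Its lowest, median and highest values were 6.72, 6.84 and 6.99 log2 CPM with thymol and 6.76, 6.86 and 7.0 with DMSO. The thymol libraries lay in 2 sets, with replicates 1, 4 and 5 at 6.95 to 6.99 and replicates 2, 3 and 6 at 6.72 to 6.74, below every DMSO library. The log2 difference was -0.03 ± 0.072 (SE, limma adjusted p = 0.935), with a 95% interval from -0.18 to 0.11, which is 0.88-fold to 1.08-fold. GENCODE vM21 holds 2 overlapping records under this symbol, 127290774 to 127296288 and 127290829 to 127293753, and how reads were divided between them is not given in the sources used here.

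*Trib3* (chromosome 2, 152337422 to 152344032, minus strand) is a target of ATF4 and CHOP, and its product binds ATF4 and AKT and restrains both. It had the fewest reads of the 10, on average 89 per thymol library and 81.2 per DMSO library. Its lowest, median and highest values were 2.99, 3.47 and 4.58 log2 CPM with thymol and 3.38, 3.51 and 3.89 with DMSO. Thymol replicate 5 was highest with 214 reads and thymol replicate 3 lowest with 49, and the thymol libraries reached beyond the DMSO libraries on both sides, 2 above and 3 below. The log2 difference was 0.07 ± 0.209 (SE, limma adjusted p = 0.955). Its 95% interval ran from -0.35 to 0.49, so that changes from 0.79-fold to 1.41-fold are compatible with the data at this depth and spread. Without thymol replicate 5 the difference was -0.12.

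*Ddit4* (chromosome 10, 59949669 to 59951834, minus strand), whose product REDD1 acts through the TSC complex, and *Sesn2* (chromosome 4, 132492032 to 132510501, minus strand), whose product Sestrin2 senses leucine, both restrain the growth kinase mTORC1. *Ddit4* had a lowest, median and highest value of 5.18, 5.37 and 5.59 log2 CPM with thymol and 5.19, 5.39 and 5.62 with DMSO, nearly the same range. *Sesn2* ran from 4.70 through 4.96 to 5.40 with thymol and from 4.79 through 4.92 to 5.44 with DMSO. Neither gene separated the groups. The log2 differences were -0.02 ± 0.105 and 0.03 ± 0.126 (SE, limma adjusted p = 0.972 each), and the sign of both depended on which libraries entered.

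*Nupr1* (chromosome 7, 126623249 to 126630861, minus strand) encodes a small disordered protein that is induced by many stresses. The thymol libraries had a lowest, median and highest value of 7.11, 7.23 and 7.57 log2 CPM, the DMSO libraries of 7.07, 7.35 and 7.61. The thymol libraries other than replicate 1 lay between 7.11 and 7.26, within the range of the DMSO libraries. The log2 difference was -0.07 ± 0.0792 (SE, limma adjusted p = 0.81).

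**Figure D2:**
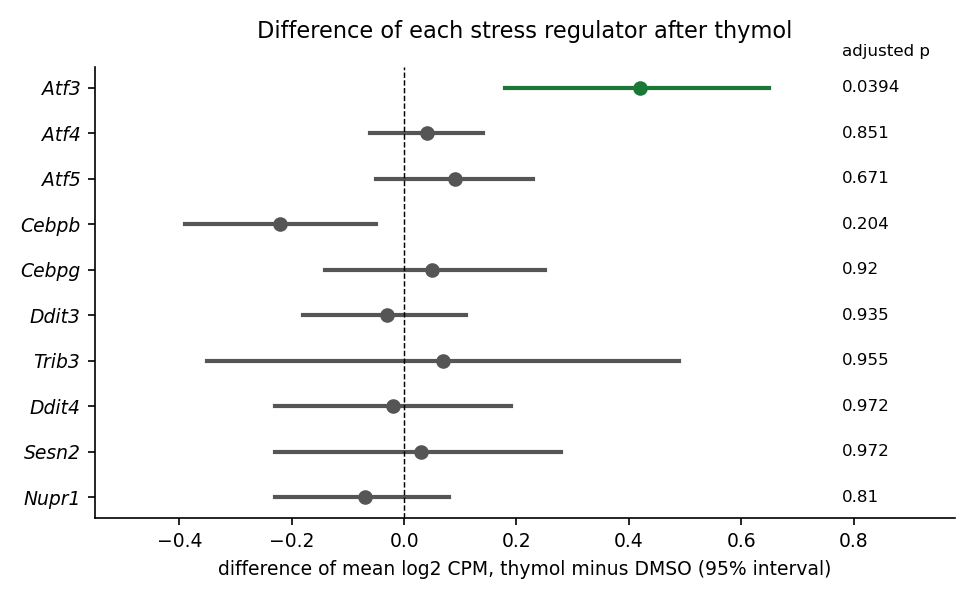
Difference of mean log2 CPM, thymol minus DMSO (horizontal axis), with its 95% interval from limma for each of the 10 regulators, and the p-value adjusted over all 10697 genes at the right. The interval of *Atf3* (green) runs from 0.18 to 0.65, that of *Cebpb* lies below 0 without passing the adjustment, and the other 8 include 0.

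Read counts from the 3′ end need no scaling by length, so the levels of the 10 genes can be ordered within a group. In DMSO the order by mean log2 CPM was *Atf4* (9.0), *Atf5* (8.35), *Nupr1* (7.34), *Cebpb* (6.90), *Ddit3* (6.88), *Cebpg* (5.91), *Ddit4* (5.41), *Sesn2* (4.99), *Atf3* (4.78) and *Trib3* (3.55). The neighbours *Cebpb* and *Ddit3* differed by less than the SD of either, and *Sesn2* and *Atf3* by less than the SD of *Sesn2*, 0.23, but more than that of *Atf3*, 0.19. With thymol the order was *Atf4* (9.04), *Atf5* (8.44), *Nupr1* (7.26), *Ddit3* (6.85), *Cebpb* (6.68), *Cebpg* (5.96), *Ddit4* (5.39), *Atf3* (5.19), *Sesn2* (5.02) and *Trib3* (3.62). The places of *Cebpb* and *Ddit3* and of *Sesn2* and *Atf3* were exchanged. The thymol means of *Sesn2* and *Atf3* again differed by less than the SD of *Sesn2*, now 0.25, but more than that of *Atf3*, 0.08. Those of *Cebpb* and *Ddit3* differed by more than the SD of *Ddit3*, 0.13.

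The regulators differed in how much they varied between libraries of the same group. The within-group SD was 0.20 for *Nupr1*, 0.18 for *Atf5* and 0.19 for *Cebpb*, above that of 97.5%, 96.8% and 95.1% of the genes whose mean level lay within 0.25 log2 CPM of theirs. *Atf3* and *Atf4* varied little for their level, with SDs of 0.14 and 0.06, above 7.46% and 14.2% of such genes. Thymol replicate 5 had the highest value of its group for 5 of the 10 genes, *Atf3*, *Atf5*, *Trib3*, *Ddit4* and *Cebpg*, and was also the most deeply read library. The part of depth in this was not tested. Thymol replicate 3 had the lowest value of its group for 4 genes. Over the 12 libraries, deviations from the group means were compared for 45 pairs of members, and after adjustment over the pairs 0 passed a permutation test with 100000 resamples. The pair with the smallest p-value was *Cebpb* with *Cebpg* (Pearson r = 0.81, permutation p = 0.0045, adjusted p = 0.2; Spearman rho = 0.81, permutation p = 0.0058, adjusted p = 0.26), and r was 0.71 without the 2 libraries farthest from the median of *Cebpb*.

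**Figure D3:**
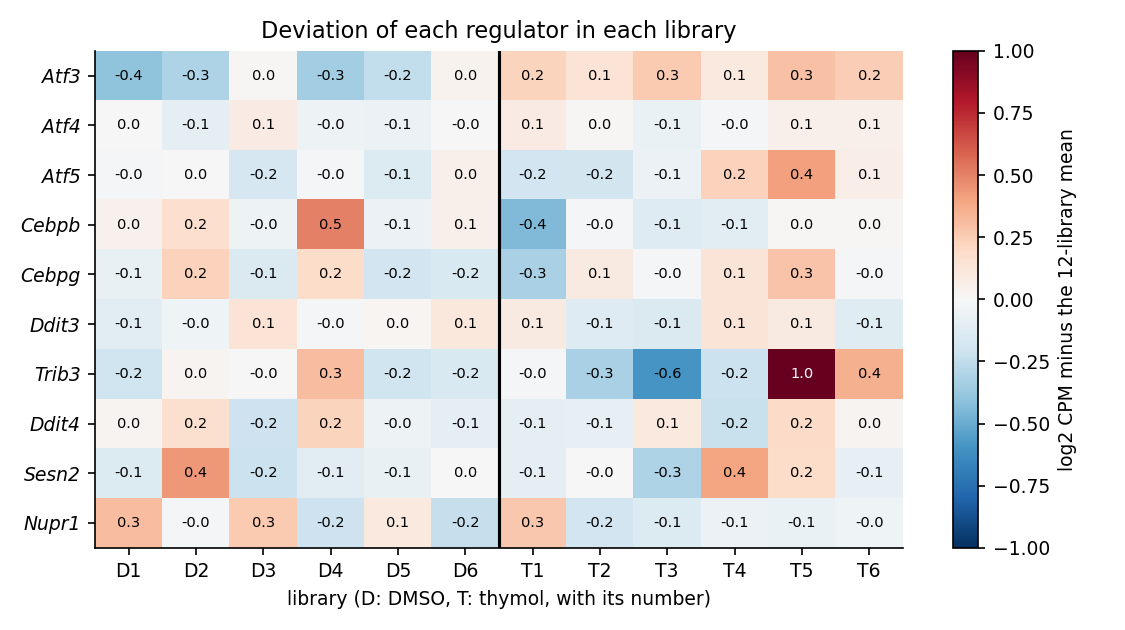
Level of each regulator in each library minus its mean over the 12 libraries (log2 CPM, colour and printed value), with DMSO libraries at the left of the line and thymol libraries at the right. The printed values of *Atf3* are at or below 0.0 on the left and above it on the right, and thymol replicate 5 (T5) holds the largest value, that of *Trib3*.

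The genes whose deviations followed those of *Atf3* most closely over the 12 libraries, among 5394 genes with a mean of at least 5 log2 CPM, were *Eef1akmt1* (Pearson r = 0.84), *Mrps16* (0.79) and *Setd2* (0.75). For *Atf4* they were *Xpo6* (0.89), *Eif3c* (0.88) and *Otud5* (0.85). These are the largest of 5394 values, each from 12 points that share depth and scaling, and are given as a description. Of these 6 genes, 0 passed the limma threshold (adjusted p from 0.768 to 0.984), as *Atf4* did not.

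For the arm before ATF4, transcripts of 19 genes were examined, all of which were in the table. They include the eIF2α kinases, phosphatase subunits, the eIF2B exchange factor and the OMA1 and DELE1 relay from mitochondria. Phosphorylation of eIF2α and the activity of these proteins were not measured, so the counts describe transcript levels only. With limma 0 of 19 passed, 0 had an unadjusted p-value under 0.05 and 0 passed with voom. Their median difference was 0.021. The smallest p-values were those of *Eif2ak4*, the kinase GCN2 that senses uncharged tRNA (log2 difference 0.25, adjusted p = 0.48), and *Eif2b4*, a subunit of eIF2B (0.21, adjusted p = 0.54).

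The steps after ATF4 were read from its targets and those of CHOP, for amino acid synthesis and transport, tRNA charging and secreted stress factors, of which 47 of 50 were in the table. With limma 0 of 47 passed, as with voom, and 7 (14.9%) had an unadjusted p-value under 0.05, against 11.8% of all genes. All 7 were higher with thymol, whereas the 11.8% counts both directions. The share of all genes with a higher level at that p-value was not counted. Beside *Psat1* and *Sars*, given below, they were, named after their values were seen, *Phgdh* (0.31), *Atf6* (0.24), *Mthfd2* (0.22), *Shmt2* (0.22) and *Cars* (0.21). Differences were positive for 35 and negative for 12, with a median of 0.076. Over all genes, 5441 differences were positive and 5256 negative. The extremes were *Cth* (0.42), an enzyme of cysteine synthesis, and *Nars2* (-0.21), a mitochondrial tRNA synthetase, and neither passed. *Psat1*, of serine synthesis, had a mean of 6.78 ± 0.11 log2 CPM in thymol and 6.54 ± 0.11 in DMSO libraries (SD, n = 6, limma adjusted p = 0.066), and *Sars*, the seryl-tRNA synthetase, of 7.80 ± 0.05 and 7.62 ± 0.06 (SD, n = 6, limma adjusted p = 0.1), with 6 of 6 thymol libraries above all DMSO libraries. Of all genes, 0.524% had every thymol library above every DMSO library. The mean over the 47 genes lay between 5.71 and 5.84 log2 CPM in the thymol libraries, highest in replicate 5, and between 5.61 and 5.73 in the DMSO libraries, so the ranges overlapped.

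Among other bZIP genes, whose products can pair or compete with the ATF and C/EBP factors, those that passed were lower. Of 38 such genes 32 were in the table, and 6 of these (18.8%) passed with a lower level and 0 with a higher one, where 1.57% of all genes passed with a lower level. *Fos*, an AP-1 subunit, fell from a DMSO mean of 5.01 ± 0.20 to 4.24 ± 0.26 log2 CPM (n = 6, SD, by limma adjusted p = 0.00026), *Cebpd*, a C/EBP factor of inflammation, from 6.73 ± 0.08 to 6.35 ± 0.15 (adjusted p = 0.0015), and *Fosl2*, another AP-1 subunit, from 8.13 ± 0.07 to 7.86 ± 0.06 (adjusted p = 0.0023). For these 3 genes, 6 of 6 thymol libraries lay below all DMSO libraries, as for 1.16% of all genes. *Creb5* (-0.50), *Crem* (-0.57) and *Junb* (-0.23) were the other 3, named after their values were seen (limma adjusted p = 0.023, 0.041 and 0.041). An unadjusted p-value under 0.05 was reached by 10 of the 32 (31.2%), against 11.8% of all genes. Beside the 6 they were, named after their values were seen, *Fosl1* (0.29), *Cebpa* (0.28) and *Atf6* (0.24), higher, and *Maf* (-0.12), lower. Among these 32 and the 6 bZIP genes described above (*Atf3*, *Atf4*, *Atf5*, *Cebpb*, *Cebpg* and *Ddit3*), *Atf3* was the only one to pass with a higher level, as 0.654% of all genes did. Without a mean-variance trend 1 of the 32 passed, and *Atf3* did not.

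The mTORC1 list, to whose inhibitors *Ddit4* and *Sesn2* belong, had 31 of 31 genes in the table. It also held relatives or binding partners of the regulators, among them *Trib1* and *Txnip*. Of the 31 genes, 1 passed with a higher level and 2, *Trib1* and *Txnip*, with a lower level, 9.68% in all against the 2.22% of all genes. With voom 2 passed, and with quantile normalization 2. *Txnip*, a glucose-sensing arrestin that binds REDD1, fell from a DMSO mean of 7.85 ± 0.13 to 7.5 ± 0.16 log2 CPM (n = 6, SD, by limma adjusted p = 0.00071). *Trib1*, a relative of *Trib3* that directs C/EBP proteins to degradation, fell from 6.46 ± 0.16 to 6.04 ± 0.19 (adjusted p = 0.0021). *Fnip2*, a partner of folliculin, rose from 5.22 ± 0.18 to 5.59 ± 0.15 (adjusted p = 0.048). Without a mean-variance trend 0 of the 31 passed.

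*Atf3* and *Sesn2* are also targets of p53, so 24 genes of that pathway were counted, and 24 were in the table. With limma 0 passed, as with voom, 3 had an unadjusted p-value under 0.05 (12.5%, against 11.8% of all genes) and the median difference was 0.03. The smallest p-values were those of *Plk2* (0.24, adjusted p = 0.11) and *Mdm2* (0.13, adjusted p = 0.27).

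The chaperones and degradation factors that the other arms of the unfolded protein response induce in the endoplasmic reticulum were also counted. Of 26 measured genes, 1 passed (3.85%), *Serp1*, which protects proteins during translocation and rose from a DMSO mean of 8.29 ± 0.12 to 8.53 ± 0.15 log2 CPM (n = 6, SD, by limma adjusted p = 0.017). With voom 2 passed, and of all genes 2.22% passed with limma. An unadjusted p-value under 0.05 was reached by 7 of the 26 (26.9%), against 11.8% of all genes. Beside *Serp1* these were, named after their values were seen, the chaperones *Hsp90b1* (-0.15, with 6 of 6 thymol libraries below all DMSO libraries), *Pdia4* (-0.22), *Hspa5* (-0.12) and *Dnajb11* (-0.14) on the lower side, and *Dnajb9* (0.36) and *Sec61b* (0.22) on the higher side, none of which passed the limma adjustment. Of the 26 differences, 11 were positive. Over all genes, 1.16% had every thymol library below every DMSO library. Of 17 genes of the mitochondrial unfolded protein response, 0 passed with limma and with voom, 2 had an unadjusted p-value under 0.05 (11.8%, the same share as of all genes) and the median difference was 0.024. *Yme1l1*, an inner-membrane protease, had a difference of 0.19 and *Hspd1*, the chaperonin HSP60, of 0.16 (limma adjusted p = 0.27 and 0.38).

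**Figure D4:**
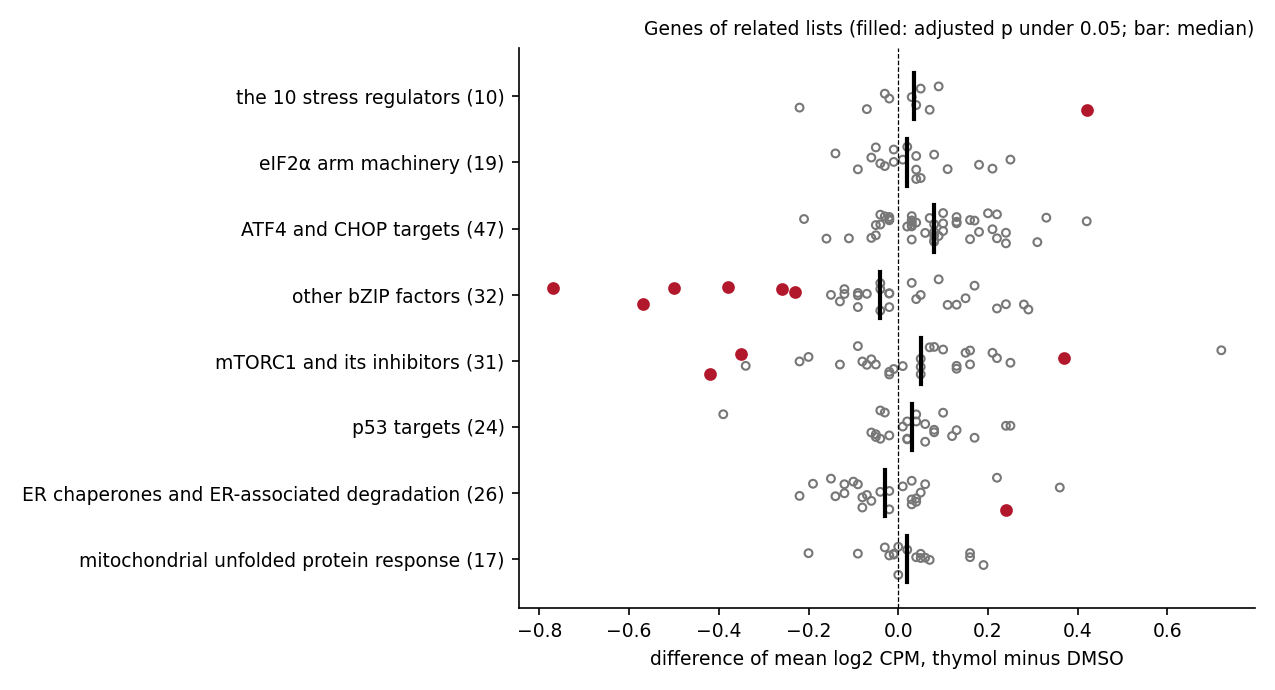
Difference of mean log2 CPM, thymol minus DMSO (horizontal axis), of each gene in the table for the 10 regulators and 7 related lists, with the number of genes in parentheses, the median as a black bar and genes past an adjusted p-value of 0.05 filled. The 6 filled points among the other bZIP factors are all on the lower side, while the 47 ATF4 and CHOP targets have no filled point and a median of 0.076.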

How the data were processed

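The authors aligned reads to GRCm38 with STAR 2.5.3, counted them per gene with HTSeq 0.6.1 (versions from the submitters' processing notes), removed genes that did not reach 30 reads in 6 samples (a minimum that 98% of the genes in the table met in the recovered reads) and applied TMM normalization. The deposited values are log2 CPM with a prior count, which corresponded to 1.96 reads in a library of mean size, and 1 column was given per library. Once the logarithm was undone, 100% of the values lay within 0.02 of a whole number of reads, and the reads were recovered from these steps.

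The table was fitted with limma 3.58.1 in R 4.3.3 (eBayes with the prior variance following the mean level, all 12 libraries, no covariate). P-values are two-sided, with Benjamini-Hochberg adjustment across the 10697 genes, and a difference is thymol minus DMSO on the log2 CPM scale. The authors' own test was a quasi-likelihood count model. It was replaced because the deposited values are log2. The count model was not fitted to the recovered reads, and voom on those reads was an alternative. Further alternatives were the trend, a pseudocount of 10 CPM, a filter at a mean of 4 log2 CPM, median centring, quantile normalization, an exact permutation test per gene (924 relabellings, smallest p = 0.00216), leaving out each library, odd- or even-numbered libraries, and the library number as a block.

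The members, the gene lists and the alternatives were chosen with earlier results of these data known, and lists were written from general knowledge of each process. Named from each list were up to 3 genes past the threshold, or otherwise the 2 with the smallest p-values. In the pathway lists, 7 of the 47 ATF4 and CHOP targets and 3 of the 32 bZIP genes also stood in another list. Coordinates are those of GENCODE vM21 (GRCm38, the build of the authors) and promoter windows those of RefSeq GRCm38.p6. *Atf5*, *Cebpb*, *Cebpg*, *Ddit3*, *Sesn2* and *Atf3* overlap other annotated genes, and reads of an overlapping gene were not separated here. Protein sequences were not used here.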

Additional observations from a re-analysis of the deposited data

Results flagged for a closer look

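Dixon's criterion at the 95% level asks whether 1 sample stands far from the others of its kind, relative to how far they spread. It was applied to the 10 genes in both groups. Of these 20 groups, 3 met it, and chance gives about 1 in 20. *Cebpb* was at 6.35 log2 CPM in thymol replicate 1, against 6.66 in the next library, and *Nupr1* was at 7.57 in the same library, against 7.26. Without thymol replicate 1 the log2 difference was -0.15 for *Cebpb* and -0.14 for *Nupr1*. *Sesn2* was at 5.44 log2 CPM in DMSO replicate 2, against 5.01 in the next library, and its difference without that library was 0.12.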

How the results depend on the processing

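The number of genes past the threshold was 238, and 57 without a mean-variance trend, 70 in the odd-numbered libraries alone and 0 by the exact permutation test. Leaving out 1 library gave 172 to 270 genes. In the exact test 1175 genes had an unadjusted p-value under 0.05. The smallest p-value it can give, 0.00216, was 0.129 after adjustment, so no gene could pass it. The number of members past the threshold was 1, and 0 to 1 with a library left out. It was 0 without a trend, in the odd-numbered libraries alone, in the even-numbered ones alone and by the exact test. At an unadjusted p-value under 0.05 these gave 1, 2, 1 and 2 of 10 members, and 1145, 828, 1109 and 1175 of all 10697 genes. The *Atf3* difference lay between 0.32 with 10 CPM added and 0.47 over the 23 alternatives, with adjusted p-values from 0.0241 to 0.487. Its sign could not turn where libraries were left out, because the groups do not overlap. The difference was 0.47 in the odd-numbered and 0.36 in the even-numbered libraries, which hold 3 libraries a group.

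Among members that did not pass, signs turned as follows. In the even-numbered libraries alone *Trib3* was -0.12, *Sesn2* -0.01, *Cebpg* -0.02 and *Nupr1* 0.05, and in the odd-numbered ones *Ddit4* was 0.14, and the cause was not tested. With a library left out, *Trib3* ranged from -0.12 to 0.20, *Ddit4* from -0.07 to 0.02, *Sesn2* from -0.05 to 0.12 and *Cebpg* from -0.0023 to 0.12. *Atf4*, *Atf5*, *Ddit3* and *Cebpb* kept their sign in 23 of 23 alternatives. *Trib3* was removed by the filter at a mean of 4 log2 CPM.

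Of the lists, without a trend the bZIP list had 1 gene past the threshold, the mTORC1 list 0 and the endoplasmic reticulum list 0. With quantile normalization the mTORC1 list had 2, against 3, and the endoplasmic reticulum list 2, against 1. The fibroblast marker mean ranged from -0.06 to -0.041 with a library left out and no longer passed in 8 of 12 cases, and the macrophage mean from -0.008 to 0.017.

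The library numbers were tested as a pairing. Deviations of same-numbered libraries correlated between -0.051 and 0.27, over 0.1 in 2 of 6 pairs, and 3 of 12 libraries correlated best with their own number. These correlations cannot tell whether libraries of the same number shared more than that number. With the replicate block 332 genes passed, with 1 member (*Atf3*, 0.42, limma adjusted p = 0.0327), 1 of the ATF4 and CHOP targets and 2 of the endoplasmic reticulum list.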
